A study of Mus musculus with 24 samples.

Results

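Recurrent STAU2 RIP loci are stretches of 1 genome strand where the authors' peak lists place a peak on 3 or 4 of the days sampled in mouse cortical development, which were E11.5 and E13.5, then E15.5, and last E17.5. They were selected on the deposited peak calls themselves. Peaks of at most 5000 bp were taken from all 8 lists, peaks that overlapped by at least 1 bp on the same strand were joined into loci, and loci with peaks from at least 3 days were kept. This gave 611 recurrent loci of 24841 loci in all (2.46%). Of these, 502 had peaks on 3 days and 109 (0.439% of all loci) on 4 days. The remaining 24230 loci, with peaks on 1 day (22101) or 2 days (2129), are the comparison used throughout. Recurrence and the values of the peaks are what chose the loci, so they are described here without a test.

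The study set RNA bound by STAU2 against the RNA of the input lysate in cortical tissue of mouse embryos, whose strain is not given in the sources used here. The 24 libraries fall into 8 groups: STAU2 RIP and input at each of the 4 days, with 3 libraries in each group. RIP stands for RNA immunoprecipitation, in which an antibody pulls a protein down together with its RNA. Per the labels' protocols, each replicate began from the pooled cortices of a litter, so a library averages over many embryos and all cell types of the cortex. The lists hold 1 set of peaks per day and strand, with a score, a signal, a p-value and a q-value per peak and no column for a replicate. Neither replicate spread nor read depth can therefore be given. A control antibody against the T7 tag was read by qPCR only and is not analysed here. The lists leave unsaid whether a peak was above or below the input. In bulk tissue, fewer cells of a type and less RNA per cell cannot be told apart.

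STAU2 belongs to the Staufen family, whose members bind double-stranded RNA. It is known for packaging messenger RNAs into granules that travel along microtubules into dendrites, and for the unequal inheritance of RNA when radial glia, the neural stem cells of the cortex, divide. Staufen proteins recognise base-paired stems, many of which lie in 3' untranslated regions (3' UTRs), the stretch of a messenger RNA after its stop codon.

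The sequences below are the bases that the peaks of most days had in common. They are given because they are the part of each RNA that was called on the most days. They were read 5′ to 3′ on the RNA strand from GENCODE M21 transcripts (GRCm38, the assembly that mm10 names). Capitals mark the bases shared by the peaks of the largest number of days, and lower case marks flanking bases. That number can be below the days of the locus: it was 3 of 4 days for Celf3 and Tsnax and 2 of 3 days for C130071C03Rik. UTR loci are shown as 30 bases around the middle of the shared bases, and the others by their shared bases, up to 120. The first group holds the best-ranked loci with peaks on 4 days whose middle is exonic, and 3 further 4-day loci in Gng3, Srsf4 and Fezf2.
Celf3, CDS: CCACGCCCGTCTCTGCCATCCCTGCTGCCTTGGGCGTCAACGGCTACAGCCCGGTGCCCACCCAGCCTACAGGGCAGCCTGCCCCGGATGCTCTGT
Tsnax, CDS: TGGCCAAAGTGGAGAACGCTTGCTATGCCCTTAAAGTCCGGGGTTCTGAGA
Wdr1, 3' UTR: aaccttgatctcattGTcagattttgtgct
Rac1, 3' UTR: gatctTATCAGTGTCTCTTGAGCATCCctt
Ywhaz, 3' UTR: CAGCCCAGCTCGCCTCAGTTGAGCTTGTGT
Gng3, 3' UTR: GCCCTCCTTACCCATGTCTACCCCATCTCC
Srsf4, 3' UTR: ACCCGTCACTGCTGTACATTAACTCCCTAA
Fezf2, CDS: GTAACCAGTGCGGCAAAGCCTTCAAT

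The second group holds loci that led by rank among those with peaks on 3 days, 1 of the 4 loci in the splicing gene Srrm2, and loci in the microRNA genes Dgcr8 and Prkra.
Hmgn5, 3' UTR: TTTATACATTTTGTGATTATAGTAGTGCAA
Gsk3a, 3' UTR: TCTCGTCTTCCCTTCCCTGGCCCCCTGGGT
C130071C03Rik, noncoding exon: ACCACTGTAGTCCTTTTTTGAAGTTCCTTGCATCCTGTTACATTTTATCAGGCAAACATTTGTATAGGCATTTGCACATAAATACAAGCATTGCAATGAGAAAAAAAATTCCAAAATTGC
Atf4, CDS: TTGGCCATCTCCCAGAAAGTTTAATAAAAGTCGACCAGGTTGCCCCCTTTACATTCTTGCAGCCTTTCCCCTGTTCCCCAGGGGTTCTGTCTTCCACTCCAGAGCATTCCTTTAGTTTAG
Srrm2, CDS: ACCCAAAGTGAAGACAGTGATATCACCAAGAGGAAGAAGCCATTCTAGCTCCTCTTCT
Dgcr8, 3' UTR: tggtggAGCCACTGAGACTTGGTCAGaaga
Prkra, CDS: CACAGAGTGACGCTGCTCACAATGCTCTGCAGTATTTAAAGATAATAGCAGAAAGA

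The windows differ widely in base composition. In a window reaching 50 nt to either side of the middle, Hmgn5 had 28.7% G and C, while Celf3 had 68.3%. Over the 531 recurrent loci with an exonic middle and a full window, the lowest GC was 25.7%, in the 3' UTRs of Sfxn1, a mitochondrial serine transporter gene, and of Lhx2. The highest was 75.2%, in the 3' UTR of the predicted gene Gm47283 and the 5' UTR of Pabpc1. The middle 30 bases of 1 locus at each extreme are shown.
Sfxn1, 3' UTR: TTTATTAAAAAAAAAAAAAAAAGAACAAAT
Gm47283, 3' UTR: ACACACGCGGGCCCCGCGCCCGCCCAGGCA

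Recurrent loci were 50 to 6661 bp long, with a median of 318 bp, and the bases shared by the most days spanned a median of 63 bp. The narrowest locus lay in the CDS of the splicing factor gene Hnrnph3, and the widest in Mbd3, a gene of the NuRD chromatin complex. Peaks of every day of a locus had at least 1 base in common in 467 of the 611 loci. Among the 109 loci with 4 days, 61 had a base common to all 4 days and 107 a base common to at least 3. The remaining loci are chains, in which the peak of 1 day bridges those of the others. In 27 loci the weakest bridge that held the days together was 5 bp or less, the smallest being 1 bp, against a median of 55 bp. Just outside the rule, 16 of the loci with 2 days had a peak of another day within 5 bp, the nearest directly adjacent with a gap of 0 bp. The widest peak inside a recurrent locus was 4326 bp, while the width limit kept peaks of up to 5000 bp and left out those from 5001 bp.

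The peaks of a locus did not sit on exactly the same bases from day to day. For each locus and day the best-ranked peak was taken, and the distance between the outermost midpoints was measured. Its median was 110 bp over all recurrent loci, 95 bp with 3 days and 202 bp with 4 days. In 167 loci (27.3%) the midpoints fell within 50 bp. They fell within 1 bp at CDS loci of Hnrnph3 and Hnrnpa3, which encode heterogeneous nuclear ribonucleoproteins. The transcript part at the midpoint was the same on every day in 451 of 611 loci (73.8%).

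Peak maps of 8 loci with 4 days show both kinds. In Ywhaz, which encodes a 14-3-3 adaptor protein, the peaks were 706, 603, 538 and 609 bp wide from E11.5 to E17.5 and had 417 bp in common. In Wdr1, which encodes a cofactor of actin filament disassembly, the 4 days had only 2 bp in common. In Celf3, an RNA-binding splicing regulator, the days met through a chain: a peak of 96 bp at E11.5 and one of 49 bp at E13.5 did not overlap each other, and both lay inside a peak of 405 bp at E17.5. In Fezf2, which specifies deep-layer cortical neurons, peaks of 392, 225, 398 and 68 bp shared 26 bp.

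**Figure D1:**
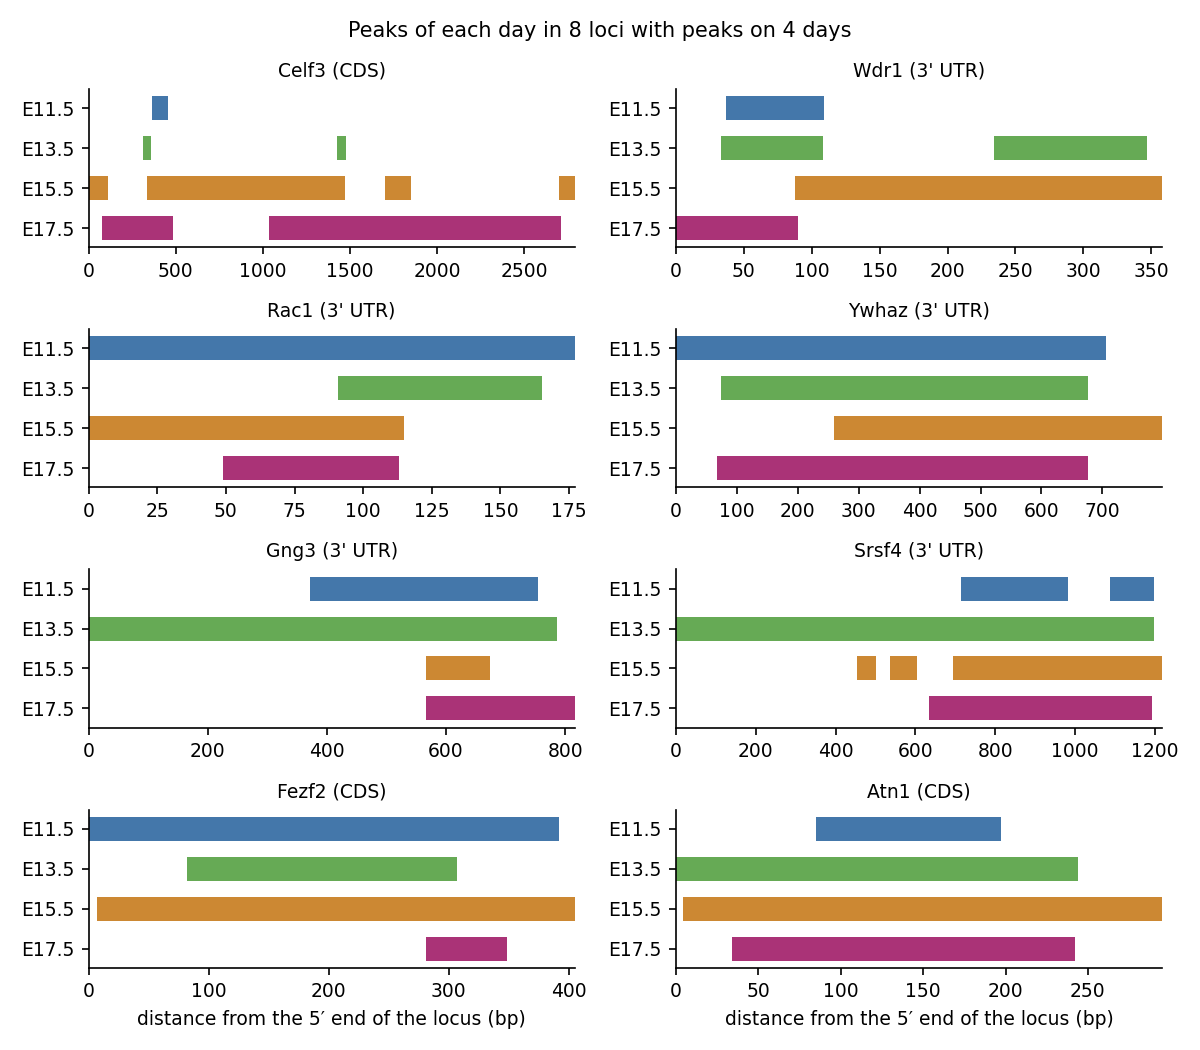
Peaks of each day in 8 loci with peaks on 4 days, drawn as bars at their distance from the 5′ end of the locus in bp, with 1 row and colour per day. The 4 peaks of Ywhaz share 417 bp, those of Rac1 22 bp and those of Wdr1 2 bp.

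The largest group of recurrent loci had peaks on the 3 later days. E13.5, E15.5 and E17.5 together accounted for 213 loci (34.9%), E11.5 with E13.5 and E15.5 for 130, E11.5 with E15.5 and E17.5 for 114, all 4 days for 109, and E11.5 with E13.5 and E17.5 for 45. The smallest group is the one that lacks E15.5, the day with the longest list: 10265 peaks, against 6530 at E11.5, 5871 at E13.5 and 6341 at E17.5. List length and day cannot be told apart in these counts. In the order of the days, 6.92%, 9.41%, 6.31% and 8.42% of the peaks used lay in recurrent loci. Loci of the 3 later days were in 3' UTRs in 54.9% and in coding sequence (CDS) in 24.9% of cases. Loci of the 3 earlier days were in 3' UTRs in 38.5% and in CDS in 40.0%.

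**Figure D2:**
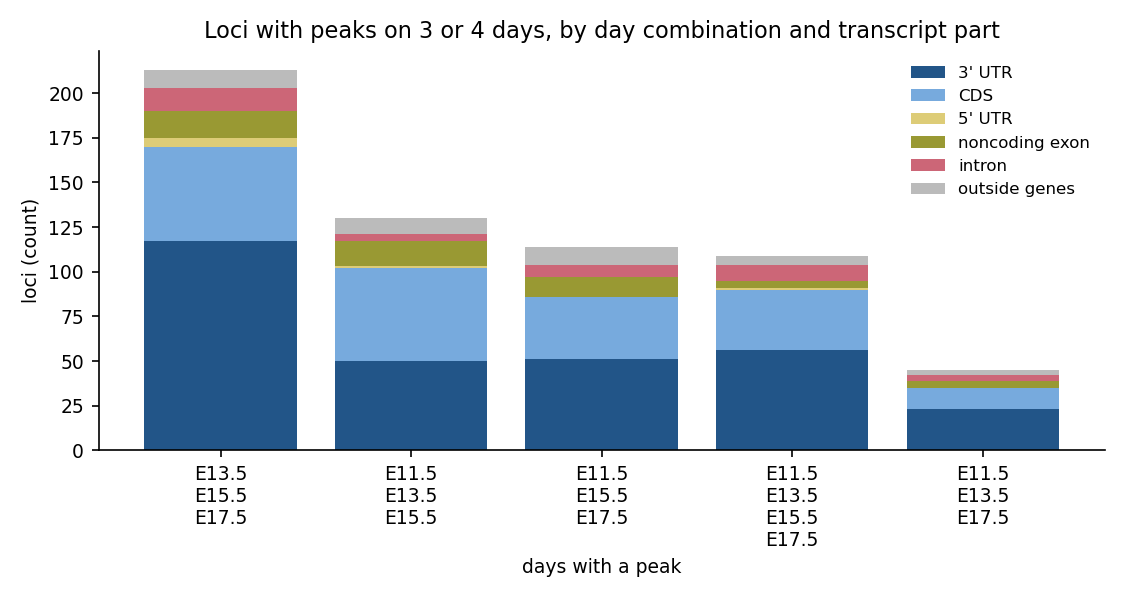
Number of recurrent loci for each combination of days, with each bar divided by transcript part. The bar of E13.5, E15.5 and E17.5 holds 213 loci and that of E11.5, E13.5 and E17.5 holds 45.

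Recurrent loci were mostly exonic. The part of the transcript was read at the middle of the shared bases, on the same strand, over all isoforms. It was a 3' UTR in 297 loci (48.6%, exact binomial 95% interval 44.6% to 52.7%), against 28.9% of loci with 1 or 2 days. It was CDS in 186 loci (30.4%, 26.8% to 34.3%), against 18.1%. Introns held 36 recurrent loci (5.89%, 4.16% to 8.06%), against 36.4% of the rest. Noncoding exons held 48 (7.86% against 7.38%), 5' UTRs 7 (1.15% against 1.20%), and 37 (6.06% against 8.01%) had their middle outside all annotated genes of their strand. These intervals cover the counting of loci only, not the spread between animals.

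Much of the step lay between 1 and 2 days. The intron share was 38.9% of loci with 1 day, 9.82% with 2 days, 5.38% with 3 days and 8.26% with 4 days. The 3' UTR share was 27.3%, 45.1%, 48.0% and 51.4% in the same order. The intervals of the 2-, 3- and 4-day shares overlapped for both parts, except that the intron interval of 3 days (3.57% to 7.73%) lay below that of 2 days (8.59% to 11.2%). Loci share libraries and genes, and some are copies, so the overlap of these intervals is a description and not a test. Width moved with the shares. The median locus was 73 bp with 1 day, 160 bp with 2 days, 280.5 bp with 3 days and 535 bp with 4 days. The part played by width in the shares was not tested.

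**Figure D3:**
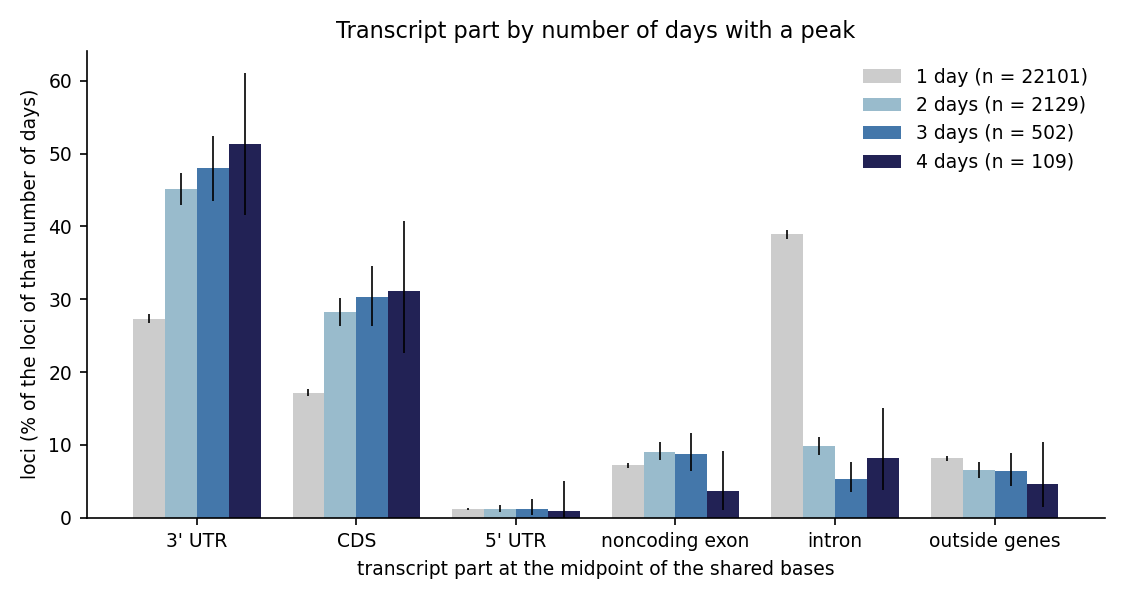
Share of loci in each transcript part, in % of the loci with peaks on 1, 2, 3 or 4 days; lines are exact binomial 95% intervals. The intron bar falls from 38.9% of 1-day loci to 9.82% of 2-day loci, and the 3' UTR bar is 27.3% and 45.1%.

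The few recurrent loci read as intronic were mostly wide loci that also cover exons. Of the 36, 32 (88.9%) overlapped an exon somewhere along their length, against 27.9% of the 8811 intronic loci with 1 or 2 days. Their median width was 1339.5 bp, against 108 bp. The locus of Mbd3 held 1636 exonic bases of its 6661, that of Wasf1, a WAVE complex gene of actin nucleation, 712 of 3072, and that of Rcor2, a CoREST corepressor gene, 482 of 704. Both Mbd5 and Luc7l were different: no exon of the host was touched, and the locus covered 191 and 409 bases of the processed pseudogenes Gm13509 and Gm16580, which lie in their introns. Only 4 loci touched no exon at all, namely those in Gm26573, Il31ra, Spata5 and Peak1, which are named here after their values were seen.

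Among loci with peaks on all 4 days, Celf3 had the best mean rank. Ranks (1 being the strongest) follow the authors' deposited p-value within a day, both strands together, and lists of unlike length are set side by side. A day's rank is that of its best peak in the locus, so ranked peaks of different days need not overlap. Loci with more peaks also had more chances of a good rank: Celf3 held 9 peaks and Tsnax 8, against a median of 4 in 4-day loci. Celf3 (chr3:94486801-94489588, plus strand, mm10) ranked 183 of 6530 peaks at E11.5, 138 of 5871 at E13.5, 1479 of 10265 at E15.5 and 53 of 6341 at E17.5. Its rank was weakest at E15.5, but the ranked peaks of E11.5, E13.5 and E15.5 do not overlap each other. Tsnax, which encodes translin-associated factor X, an RNA-binding nuclease partner (chr8:125028880-125033734, plus), ranked 1841, 313, 838 and 1029 in the order of the days. The rank of Tsnax was weakest at E11.5, where the ranked peak overlaps neither that of E13.5 nor that of E15.5. The 3' UTR locus of Wdr1 (chr5:38527000-38527357, minus) ranked 1293, 663, 1334 and 1707.

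Signalling genes followed. Rac1, a small GTPase gene of actin remodelling (chr5:143506065-143506241, minus, 3' UTR), ranked 2174, 281, 1767 and 1098. Ywhaz (chr15:36770758-36771555, minus, 3' UTR) ranked 177, 1403, 2676 and 1328, and its deposited signal was 390, 525, 433 and 433. Gng3, a neuronal G-protein gamma subunit gene (chr19:8837818-8838633, minus, 3' UTR), was rank 19 at E11.5 and rank 2840 at E13.5, and 1008 and 997 at the later days. Gng3 thus led at the earliest day only, although its deposited signal was lowest there, at 70.6, against 150, 144 and 206. At this locus genes are annotated on both strands (Bscl2 lies opposite).

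The other named 4-day loci span several functions. Srsf4, a serine- and arginine-rich splicing factor gene (chr4:131900316-131901533, plus, 3' UTR), ranked 1296, 449, 649 and 2563. Capzb, the beta subunit of actin capping protein (chr4:139291039-139291414, plus, 3' UTR), ranked 94, 374, 6472 and 1384. Fkbp1a, which encodes a prolyl isomerase that binds FK506 (chr2:151560623-151561590, plus, 3' UTR), ranked 46, 60, 1653 and 5132. Its early ranks are near the top and its last lies deep in the E17.5 list, but they belong to different bases. The peaks of E11.5 and E13.5 (both 151560626-151560780) do not overlap that of E17.5 (151561499-151561590), and only the E15.5 peak of 968 bp joins them. Wasf1 (chr10:40934590-40937661, plus) was best at E17.5 instead, with 1344, 1295, 5968 and 67. Sirt2, a deacetylase gene (chr7:28787951-28788383, plus, 3' UTR), ranked 3224, 1210, 715 and 1624. Kdm6b, a histone H3 demethylase gene (chr11:69398812-69399169, minus, 3' UTR), ranked 2258, 2541, 1263 and 831. The rest of the best 20 were Slc25a23, a mitochondrial carrier gene, Pitpnb, a phosphatidylinositol transfer protein gene, Isca2, a gene of iron-sulfur cluster assembly, Mlf2, Rcor2, Mbd3, Mbd5 and Luc7l.

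**Figure D4:**
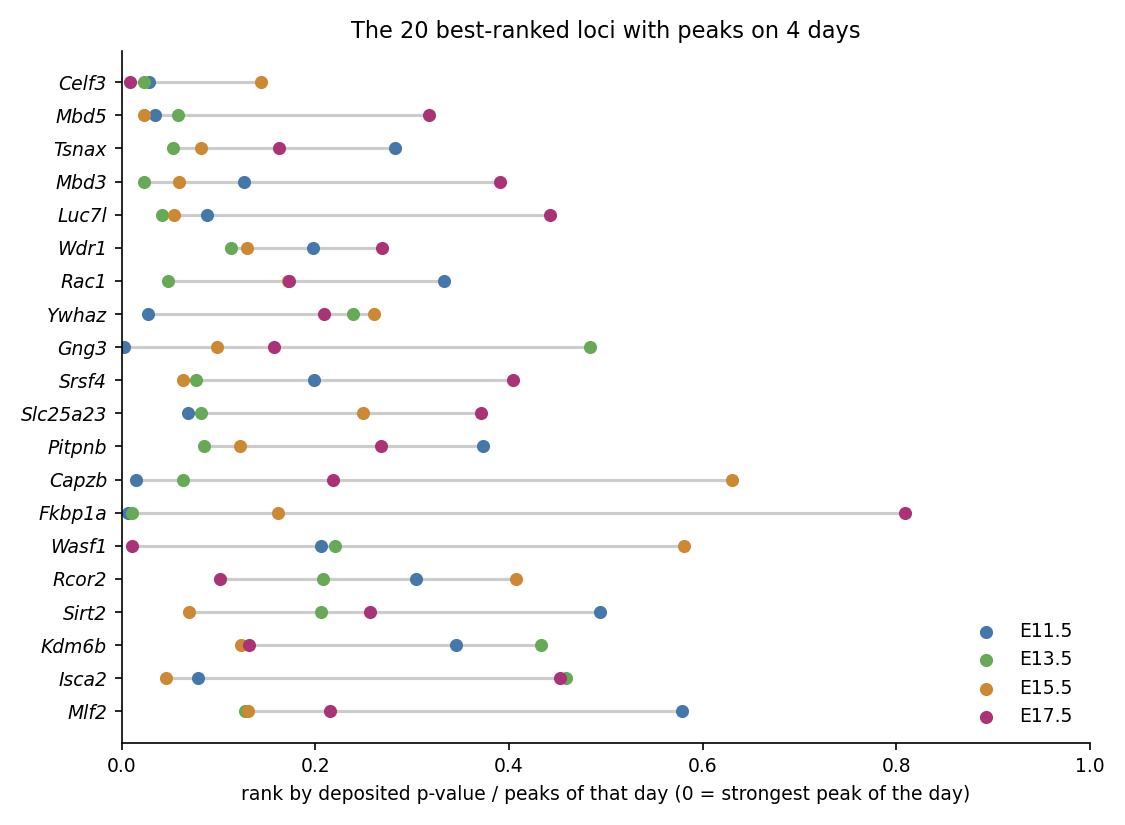
Rank fraction of the best peak on each day (rank by the deposited p-value divided by the peaks of that day, 0 being the strongest) for the 20 best-ranked loci with peaks on 4 days; each row is a locus, each point a day and the grey line the range. Within a row the days are spread widely, as in Fkbp1a, at rank 46 at E11.5 and rank 5132 at E17.5. The ranked peaks of a row need not overlap, and those of Fkbp1a at E11.5 and E17.5 do not.

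No recurrent locus was in the best 10% of peaks on all 4 days, which only the 109 loci with 4 days could have been. Loci in the best 10% on 3 days numbered 7: Hmgn5, Gsk3a, C130071C03Rik, Celf3, Mbd5, Luc7l and a locus that covers 178 exonic bases of the pseudogene Gm15610, with its middle 38 bp past the end. On 2 days there were 37, on 1 day 204, and 363 recurrent loci were in the best 10% on no day. Counted by peaks in the order of the days, 14.8%, 15.2%, 14.5% and 11.5% of those in recurrent loci were in the best 10%. The shares of the other peaks were 9.71%, 9.45%, 9.74% and 9.89%. The best-ranked day was E15.5 for 196 loci, E13.5 for 151, E17.5 for 135 and E11.5 for 129. These are counts and not shares, since the days were present in unlike numbers of loci. A peak was missing at E15.5 in 45 loci, at E13.5 in 114, at E17.5 in 130 and at E11.5 in 213.

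Among loci with 3 days, Hmgn5, a nucleosome-binding protein gene (chrX:109004825-109005048, minus, 3' UTR), ranked 85, 198 and 285 at E11.5, E13.5 and E15.5. Gsk3a, the alpha isoform gene of glycogen synthase kinase 3 (chr7:25228335-25228583, minus, 3' UTR), ranked 239 at E11.5, 349 at E13.5 and 7 at E17.5, with no peak at E15.5. C130071C03Rik, a long noncoding RNA gene (chr13:83740198-83740699, plus), ranked 273, 523 and 214 on the 3 earlier days. All 3 loci were in the best 10% on each day they were listed. Atf4, the transcription factor gene of the integrated stress response (chr15:80256653-80257178, plus, CDS), was rank 11 at E11.5 and had no peak at E13.5, and it ranked 2616 and 340 on the later days. Npepps, an aminopeptidase gene (chr11:97206440-97206863, minus, 3' UTR), ranked 187, 788 and 1026 from E13.5 on. Gnas, the stimulatory G-protein alpha subunit gene (chr2:174345651-174345769, plus, 3' UTR), ranked 159, 1381 and 1116 from E13.5 on. Ncbp2, a subunit gene of the nuclear cap-binding complex (chr16:31956980-31957109, plus, 3' UTR), ranked 562, 1149 and 636 on the 3 earlier days.

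As a group, recurrent loci carried a higher deposited signal than the other loci of the same day. The signal is the authors' own, in a unit the sources do not state. The median over peaks in recurrent loci was, in the order of the days, 70.5, 70.0, 79.8 and 73.5, against 23.5, 18.1, 20.9 and 20.3 in the others. Ranks by p differed less: in the same order the median rank was 2864, 2600, 3827 and 2667, against 3288, 2969.5, 5208 and 3222. Peaks in recurrent loci were also wider, with medians of 119, 147, 145 and 150 bp against 76 to 79 bp. The order of the loci by signal was more alike between days than their order by rank. Over the loci shared by a pair of days, Spearman's correlation of the signal lay between 0.65 (E11.5 and E17.5, 268 loci) and 0.82 (E13.5 and E15.5, 452 loci). For the rank fraction it lay between 0.0093 (E13.5 and E17.5, 367 loci) and 0.16 (E11.5 and E13.5, 284 loci). These are descriptions across loci that share libraries.

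Protein-coding genes hosted 536 of the recurrent loci. They were 468 genes, or 6.93% of the 6753 protein-coding genes that host any locus. A locus with 4 days lay in 96 of them. More than 1 recurrent locus was found in 56 genes and 3 or more in 11. Srrm2, which encodes a large serine- and arginine-rich scaffold of the spliceosome, held 4: CDS loci at chr17:23816731-23816846, chr17:23820774-23821104 and chr17:23816201-23816665, and a locus centred on an intron at chr17:23822461-23823812. The intronic one covers 607 exonic bases and the annotated microRNA Mir5125. Gnas and Sbk1, a kinase gene, held 3 loci each, all in 3' UTRs, and these were all of their loci in the series. Atn1, the atrophin corepressor gene, held 3 CDS loci. Zrsr2, a U2 auxiliary splicing factor gene, held 1 each in a 3' UTR, a noncoding exon and an intron. Genes that host many loci had more chances: a recurrent locus was found in 1.82% of hosts with 1 locus, 5.93% with 2, 11.7% with 3 to 4, 14.6% with 5 to 9 and 12.5% with 10 or more.

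Among gene lists with more than 50 hosts, splicing factors and RNA-binding genes had the highest shares. Of 65 splicing factor genes that host any locus, 17 hosted a recurrent one (26.2%, exact 95% interval 16.0% to 38.5%), beside 6.93% of all protein-coding hosts, and 10 of the 17 had a locus with 4 days. All 65 genes on the splicing list hosted a locus, whereas 54 of the 65 genes on the RNA-binding list did. The lists were chosen with earlier results of these data known, and the interval does not cover that choice. Splicing factor hosts held a median of 4 loci per gene, as against 2 over all hosts. The leading members were Srrm2, Sf3b1, a core subunit of the U2 snRNP (chr1:54987256-54987430, CDS), Luc7l, a U1-associated factor gene whose locus covers an intronic pseudogene, and Srsf4. The others, listed without regard to rank, were Hnrnpa0, Hnrnpa2b1, Hnrnpa3, Hnrnpdl, Hnrnph1, Hnrnph3, Hnrnpr, Sf1, Snrpb, Srsf2, Srsf3, Srsf6 and Ddx5. Sf3b1 was listed on the 3 later days, at ranks 1048, 450 and 1258.

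RNA-binding and translation control genes had 11 of 54 hosts (20.4%, 10.6% to 33.5%), 6 with 4 days. These hosts too held a median of 4 loci per gene. The share over all protein-coding hosts with 3 to 4 loci, 11.7%, lies inside the interval. Celf3, the neuronal splicing regulators Rbfox3 and Nova2, and Msi1, a translational regulator of neural stem cells, led this list. Nova2 (chr7:18964100-18964510, plus, 3' UTR) was listed on 4 days and ranked 1133, 3878, 4278 and 210. Rbfox3, known as the neuronal marker NeuN (chr11:118489809-118490353, minus, 3' UTR), ranked 4032, 1514 and 422 from E13.5 on. Its rank was better on each later day, from 4032 of 5871 to 422 of 6341. Msi1 (chr5:115453879-115454350, plus, 3' UTR) was listed on the 3 earlier days, at 2770, 3036 and 245. Pabpc1, the cytoplasmic poly(A)-binding protein gene, held 3 loci.

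Of 11 microRNA pathway hosts, 3 had a recurrent locus (27.3%, 6.02% to 61.0%), and these 11 hosts also held a median of 4 loci per gene. Dgcr8, the partner of Drosha in the cleavage of primary microRNAs (chr16:18255037-18255223, minus, 3' UTR), ranked 275, 4138 and 1079 from E13.5 on. Ago2, the slicing Argonaute (chr15:73103771-73104005, minus, 3' UTR), ranked 2864, 1865 and 2793 on the 3 earlier days. Prkra, a double-stranded RNA-binding partner of Dicer (chr2:76630191-76630473, minus, CDS), was listed on 4 days at 6156, 2111, 2155 and 344. Prkra was near the end of the E11.5 list and near the top at E17.5.

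Cytoskeletal lists also lay above the share of all hosts, with intervals that include it. Actin cytoskeleton genes had 5 of 37 (13.5%, 4.54% to 28.8%): Dbn1, the actin-binding drebrin of dendritic spines, Capzb, Wasf1, Arpc5 of the Arp2/3 complex, and Wasf3. Microtubule and motor genes had 5 of 35 (14.3%, 4.81% to 30.3%), among them Mapre3, an end-binding protein gene, the dynein subunit genes Dync1h1 and Dync1i2, and Tubb4a, a beta-tubulin gene. Of pan-neuronal genes, 4 of 25 (16.0%) were hosts: Basp1 and Stmn4, which act in growth cones and on microtubules, Ina, an intermediate filament gene, and Sept3, a septin gene. Wnt pathway genes had 4 of 25 as well (16.0%), namely Gsk3a, the Dishevelled gene Dvl3, the transcription factor gene Tcf7l1 and the casein kinase gene Csnk1g2.

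Chromatin regulators had 7 of 79 (8.86%), among them Kdm6b, Smarca4 and Chd2. Ubiquitin conjugation and removal had 14 of 163 (8.59%), led by Ube2e1, Rnf181, Ube2c and Trim28. Cell cycle genes had 4 of 34 (11.8%): Mki67, the proliferation marker, Cdk4, Tpx2 and Smc1a. Kinases of the MAPK and mTOR list had 4 of 36 (11.1%): Prkaca, Mapk3, Mark1 and Wnk2. Membrane trafficking genes had 5 of 77 (6.49%), led by Arl8a, Rab11a, Rab2a and Rab3a, and synapse and channel genes 2 of 33 (6.06%), Dlg4 and Vamp2. Mitochondrial ribosomal protein genes had 4 of 45 (8.89%), nuclear oxidative phosphorylation genes 4 of 53 (7.55%), zinc finger genes of the Zfp series 7 of 137 (5.11%) and solute carriers 3 of 99 (3.03%).

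The smaller lists give wide intervals. Transcription elongation and Mediator genes had 2 of 20 (10%, 1.23% to 31.7%), Polr2a and Supt5. Notch pathway genes had 2 of 14 (14.3%, 1.78% to 42.8%), Rfng, which modifies Notch, and Numbl. The mRNA decay list had 1 of 13, Casc3 of the exon junction complex. Radial glia genes had 1 of 12 and upper-layer genes 1 of 3, Lhx2 in both, intermediate progenitor genes 2 of 8 and deep-layer genes 2 of 7.

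Of the 32 lists, 8 had no recurrent host. They included 0 of 32 axon guidance genes, which allows a share of up to 9.38% (3 counts), 0 of 19 cytosolic ribosomal protein genes (up to 15.8%), 0 of 13 cadherins and protocadherins, and 0 of 13 reported STAU2 cargo genes (up to 23.1%). The others were calcium-calmodulin signalling and vessels and meninges (0 of 10 each), interneurons (0 of 7) and microglia and red blood cells (0 of 3). All of these limits lie above 6.93%, so a lower share than that of all hosts was not detectable with these numbers of genes.

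**Figure D5:**
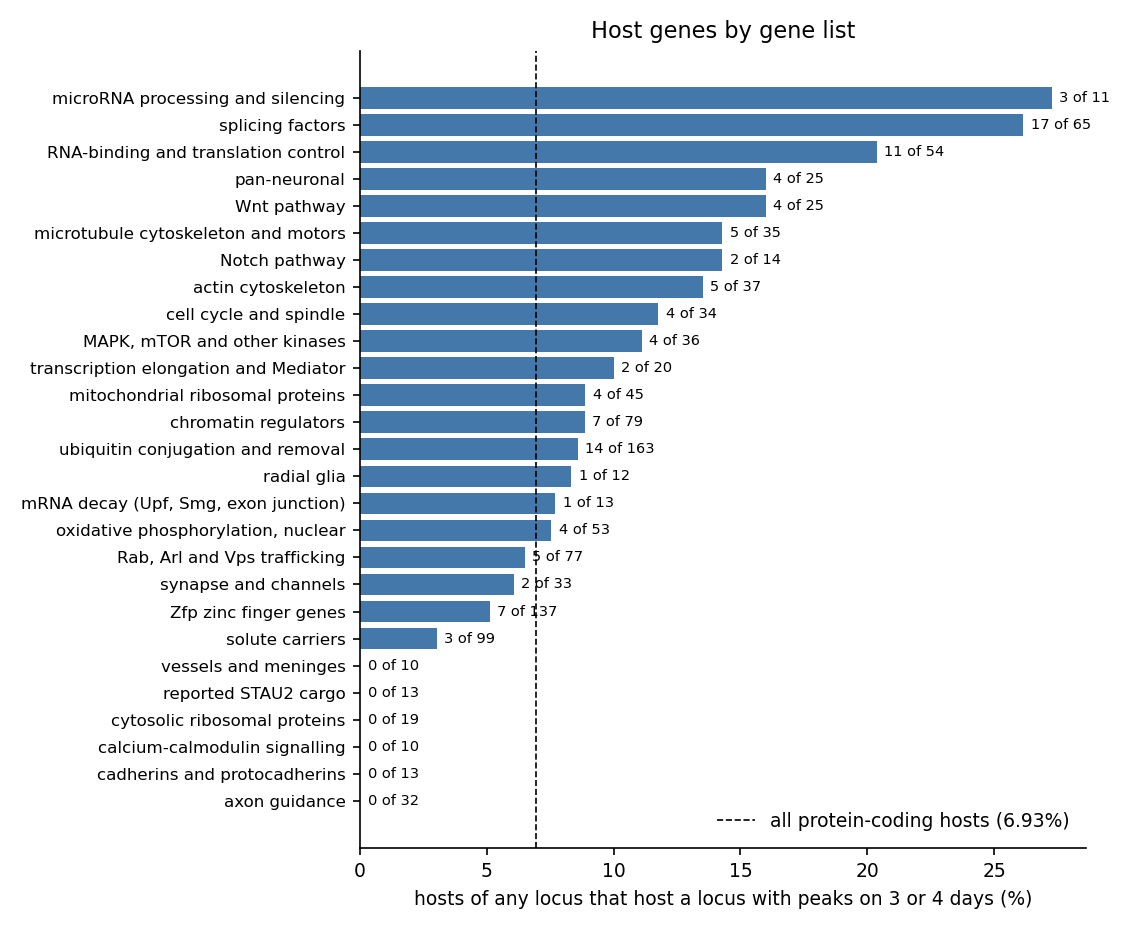
Share of each list's host genes that host a recurrent locus, in %, for the 27 lists with at least 10 hosts of any locus; the counts stand beside the bars and the dashed line marks all protein-coding hosts (6.93%). Splicing factors (17 of 65) and RNA-binding genes (11 of 54) lie above 20%, and 6 of these lists have a bar of 0. Hosts in both named lists held a median of 4 loci per gene, against 2 over all hosts, and all 65 genes on the splicing list were hosts.

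The sets of cell type markers are small, and their counts stand beside the 6.93% of all protein-coding hosts. Of 9 cortical neuron markers, 6 hosted any locus and 2 a recurrent one: Tbr1 (chr2:61812635-61813125, plus, 3' UTR) and Fezf2 (chr14:12343632-12344036, minus, CDS), both regulators of deep-layer neurons. Tbr1 was rank 2674 at E11.5, had no peak at E13.5, and ranked 745 and 4763 on the later days. Fezf2 ranked 4171, 5434, 6744 and 317, so its locus was far better placed at E17.5 than on the other days. Of 5 intermediate progenitor markers, 4 hosted any locus and 1 a recurrent one. This was Gadd45g (chr13:51846684-51846826, plus, 5' UTR), at ranks 2416, 130 and 5764 from E13.5 on. Hes6, a neurogenic bHLH gene outside that set (chr1:91411600-91412200, minus, 3' UTR), ranked 2147, 1845 and 3509 on the same days. Lhx2, a homeobox gene of cortical progenitors, held 2 loci with 3 days each. None of the markers of radial glia (3 of 8 hosting any locus), interneurons (3 of 7), vessels and meninges (9 of 10), microglia (1 of 5) or red blood cells (0 of 6) hosted a recurrent locus.

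Sequence composition was compared part by part in the same windows. In 3' UTRs the median GC was 49.5% in recurrent loci (297 windows, quartiles 42.6% and 55.4%) and 46.5% in loci with 1 or 2 days (6948 windows, 38.6% and 53.5%). The C share was 27.1% against 23.6%, while the G share was 21.5% against 22.3%, so the excess was in C. In CDS, where 185 windows were read, the C share was 30.4% against 27.9% and the G share 24.0% against 25.6%. Noncoding exons went the other way, with 42 recurrent windows: the median GC was 44.6% against 47.5% and the C share 20.4% against 23.2%. Their hosts were a different mix. Processed pseudogenes hosted 33 recurrent loci, beside 48 loci in noncoding exons, and 632 of the other loci, beside 1789. The part played by this mix was not tested. The 7 windows in 5' UTRs had a median GC of 65.3% against 58.4%. The predicted folding energy of the window, from RNAfold, had a median of -20.8 kcal/mol in both sets of 3' UTR loci. In CDS it was -21.2 kcal/mol in recurrent loci and -23.8 kcal/mol in the others, a less stable prediction in the recurrent ones. No test was made of these differences, since transcript, length and width vary with them.

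Within their 3' UTRs the 4-day loci had a lower median position, with a wide spread. The median relative position, from 0 at the stop codon to 1 at the end, was 0.279 in the 56 loci with 4 days, 0.461 in the 241 with 3 days and 0.476 in loci with 1 or 2 days. The quartiles overlapped, at 0.177 and 0.662 with 4 days against 0.224 and 0.723 with 1 or 2 days. The median distance from the stop codon was 371.5 nt with 4 days and 667 nt with 1 or 2 days. The 3' UTRs that host recurrent loci were shorter, with a median of 1172 nt against 1700 nt. Among the 12 of the best 20 loci with 4 days that lie in 3' UTRs, the distance ran from 67 nt in Isca2 to 1630 nt in Ywhaz. It was 86 nt in Sirt2, 91 nt in Srsf4, 116 nt in Fkbp1a, 128 nt in Gng3 and 153 nt in Capzb. It was 536 nt in Wdr1, 782 nt in Kdm6b, 834 nt in Rac1, 1036 nt in Pitpnb and 1280 nt in Slc25a23. These loci thus lay both close to the stop codon and far from it. CDS loci lay toward the end of the coding sequence, at a median of 0.715 against 0.664.

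The same windows were searched on the RNA strand only, and a match is a description. The polyadenylation signal AATAAA was in 3.37% of recurrent 3' UTR windows against 5.34% in the rest, the AU-rich pentamer ATTTA in 9.43% against 12.03%, and CTGCTG in 8.42% against 7.60%. The triplet repeat CAGCAGCAG was in 0.673% of recurrent 3' UTR windows (2 of 297) and 0.187% of the others. Annotated small RNAs overlapped 3 recurrent loci (0.491% against 0.264%): Mir5125 in Srrm2, and the small nucleolar RNAs Gm22888 in Ubap2 and Gm23187 in Nop56.

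A share of the recurrent loci lay in sequence that exists in several copies. The central 51 nt of the window occurred exactly in transcripts of more than 1 gene in 74 of 531 recurrent loci (13.9%, 11.1% to 17.2%), against 7.45% (7.005% to 7.91%) of loci with 1 or 2 days. Processed pseudogenes, which are copies of messenger RNAs inserted into the genome, hosted 33 recurrent loci (5.40% against 2.61%). A further 22 of the 37 loci read as outside genes had their middle within 1000 bp after the annotated end of a processed pseudogene (59.5% against 17.1% of such loci with 1 or 2 days). Of the 37, 11 (29.7%, against 2.83%) overlapped an exon with another part of their length, 10 of them a pseudogene exon. For each of these 55 loci the coding gene that shares most 20-mers with the pseudogene was found. It hosted a recurrent locus of its own in 18 of 33 and 15 of 22 cases (54.5% and 68.2%), against 26.9% and 20.7% for loci with 1 or 2 days.

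Several of these loci had the same closest coding gene. Hnrnpa3 was the closest coding gene for 6 loci, Hmgn2, a nucleosome-binding protein gene, for 5, Hmgb2, a DNA-bending chromatin protein gene, for 4, and Tdg, a thymine DNA glycosylase gene, for 4. The 5 loci of Hmgn2 copies had their middles 633, 634, 634, 638 and 649 bp after the ends of Hmgn2-ps1, Gm7931, Gm10182, Gm10357 and Gm6750. The middle of the recurrent locus in Hmgn2 itself (chr4:133964817-133965102, minus) lay 631 nt into its 3' UTR. These family members were named after their values were seen.

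Some of these copies carried the same deposited numbers. At E11.5 a peak of 64 bp with rank 828 and signal 927 was listed at 4 recurrent loci: Hmgn2, the coding gene Gm10282, and the loci after Gm10182 and Gm10357. At E13.5 a peak of 116 bp with rank 286 and signal 387 was listed at Hmgn2, Gm10282 and the locus after Gm6750. The tandem genes Gm13691 and Gm13693 to Gm13698 on chromosome 2 shared their peaks as a set of 7 at E13.5 (470 bp, signal 41.4) and at E17.5 (152 bp, signal 45.1). The loci in these 7 genes were each held together by a bridge of 1 bp. All but that of Gm13691, with 3 days, were counted as separate CDS loci with 4 days. The middle of the shared bases is shown for 2 of them, to show how alike the copies are. Gm13694, Gm13695 and Gm13696 gave the same letters as Gm13693, and Gm13698 the same as Gm13697.
Gm13693, CDS: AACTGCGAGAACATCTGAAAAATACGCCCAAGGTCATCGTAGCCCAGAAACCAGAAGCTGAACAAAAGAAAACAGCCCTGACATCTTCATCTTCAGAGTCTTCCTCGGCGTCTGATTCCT
Gm13697, CDS: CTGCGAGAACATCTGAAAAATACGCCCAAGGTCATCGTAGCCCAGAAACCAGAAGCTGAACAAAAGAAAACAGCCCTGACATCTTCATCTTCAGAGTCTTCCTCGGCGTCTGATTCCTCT

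A peak repeated elsewhere on the same day, with equal width, p-value, q-value and signal, was found in 31 recurrent loci (5.07%), and in 6.67% of loci with 1 or 2 days. Repeats on 2 or more days were found in 21 recurrent loci and in 7 loci with 1 or 2 days. They were found on 3 or more days in 12 recurrent loci, a number of days the other loci cannot reach by definition. Joining the loci tied by such peaks gave 9 families of 26 loci, and 594 in place of 611 loci. The share of 4-day loci with a repeated peak was 11.01% (12 of 109), but loci with more peaks had more chances of one. Counted by peaks, 3.28% were repeated in recurrent loci, against 6.21% in loci with 1 or 2 days. In 4-day loci it was 7.13% of peaks. How reads that fit several places were handled is not given in the sources used here, and its part in the recurrence of these loci was not tested.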

How the data were processed

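STAU2 RIP and input RNA of embryonic cortex were sequenced at 4 days. Per the submitters' processing notes, the tools were Cufflinks 2.2.1, bedtools 2.17.0 and TopHat2 2.0.9 (TopHat is listed too), with mm10. For the peak caller and its test, the name and settings were not given in the sources used here. The authors deposited 1 list per day and strand, with a score, a signal, a p-value and a q-value per peak. Read depth is unknown and no replicate values are in the lists, so no test was made.

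Peaks were merged per strand in Python 3.11.15 (pandas 2.3.3, numpy 2.4.6, scipy 1.17.1), and the merging was tested on simulated peaks. Each locus took its part from GENCODE M21 at the midpoint of the bases covered on most days, with a 3' UTR read before CDS, CDS before a 5' UTR, then noncoding exons, introns and outside genes. Windows reaching 50 nt to either side were read from transcripts, although genome sequence had been planned, so intronic loci have none. They were folded with RNAfold 2.7.2. Exact copies were sought with the central 51 nt, and closest coding genes of pseudogenes with 20-mers. Figures were drawn with matplotlib 3.10.9.

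Loci were ranked by the mean rank fraction over days. Named are the 20 best with 4 days, the 10 best with 3 days, the 3 best of each part, the 5 genes with most loci, up to 4 hosts per gene list, the extremes of width and GC, and up to 5 loci over small RNAs or pseudogenes. Others were named after their values were seen. The loci and gene lists were chosen with earlier results of these data known. Alternatives covered peak width, overlap, list length, left-out days and the reading of the part. Exact binomial 95% intervals and limits cover counting error only.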

Additional observations from a re-analysis of the deposited data

How the results depend on the processing

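The count of recurrent loci rests on the lists used. With only the stronger 50% of each day's peaks it was 178 in place of 611, with 19 in place of 109 loci on 4 days, and the 3' UTR share was 56.7% in place of 48.6%. With peaks needed on all 3 remaining days, 320 loci were left without the lists of E11.5, 209 without E13.5, 138 without E15.5 and 234 without E17.5, where fewer lists were used by construction. Cutting each day to 5871 peaks gave 72 loci with 4 days, and asking for 1 base common to all days gave 61. The 3' UTR share was 58.9% when any overlap counted and 53.6% without pseudogene exons and exons of 2 or more genes. Under the other alternatives run, the count was 430 to 623 loci, the 4-day count 84 to 114 and the 3' UTR share 46.0% to 52.0%. The median GC was 50.5% to 51.5% under all of its alternatives. Of alternatives chosen after seeing the data, leaving out pseudogenes, shared exons and copies gave 501 loci, and leaving out repeated peaks gave 582 loci, 98 of them with 4 days. No paired analysis was possible because the lists carry no replicate columns, and for the same reason no replicate could be left out.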
